A study of Mus musculus with 8 samples.

Results

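Nicotinamide nucleotide transhydrogenase, encoded by *Nnt*, and 9 enzymes that remove superoxide and peroxides were examined in mouse cortex lacking the clock modulators SHARP1 and SHARP2. The members were chosen by gene symbol, *Nnt*, *Sod1*, *Sod2*, *Cat*, *Gpx1*, *Gpx4*, *Gsr*, *Prdx1*, *Prdx2* and *Prdx6*, from the annotation of the array. Of these 10 genes, 8 had probe sets of their own, among 8251 such genes in the series. They had 11 probe sets out of 12422, and 10 of the 11 passed the filter on dim signals. *Prdx1* was listed only on 2 probe sets that also list the predicted gene *Gm21399*, so these name neither gene and were left out of the counts. For *Prdx6* no probe set was named in the annotation used here. *Nnt* had been picked because its signal differed between the genotypes in these same arrays, so its genotype difference is given as a description without a test. The other enzymes were added for their function.

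The groups were WT and S1/2-/- mice, the latter double null for *Sharp1* and *Sharp2*, each harvested at ZT4 and at ZT16, where ZT counts hours after light onset in a 12 h light, 12 h dark cycle. Each of the 4 groups had 2 mice, aged 4 months per the labels, and all carry the strain label C57/bl6. The methods give a 3 to 5 month range, males only, parental lines backcrossed to C57Bl/6J, and both genotypes bred from double heterozygous pairs. The tissue was cortex cut from coronal slices, and no treatment was given.

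NNT sits in the inner mitochondrial membrane, where it uses the proton gradient to pass hydride from NADH to NADP+ and so supplies NADPH to the matrix. NADPH keeps glutathione and thioredoxin reduced, which in turn serve the glutathione peroxidases and peroxiredoxins, while superoxide dismutases turn superoxide into the hydrogen peroxide that these enzymes and catalase remove. The C57BL/6J substrain is known for a deletion of several *Nnt* exons that other C57BL/6 substrains lack. The position of the *Nnt* probes within the transcript and the *Nnt* allele of these mice were not analysed here.

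Promoter sequences were found in RefSeq (GRCm38.p6) for 7 of the 10 genes, 10 windows in all since *Gpx4* has several starts, and not for *Nnt*, *Gsr* or *Prdx6*. Shown are *Prdx2*, whose probe sets disagreed between the genotypes, and *Sod1* and *Prdx1*, which held a match to one of the motifs searched. Windows run 5′ to 3′ on the strand of the gene, *Prdx2* at chr8:84969372-84969671, *Sod1* at chr16:90220512-90220811 and *Prdx1* at chr4:116685349-116685648, all on the plus strand. Capitals mark matches to TGACNNNGC, the core of the antioxidant response element that NRF2 binds, on either strand.
Prdx2: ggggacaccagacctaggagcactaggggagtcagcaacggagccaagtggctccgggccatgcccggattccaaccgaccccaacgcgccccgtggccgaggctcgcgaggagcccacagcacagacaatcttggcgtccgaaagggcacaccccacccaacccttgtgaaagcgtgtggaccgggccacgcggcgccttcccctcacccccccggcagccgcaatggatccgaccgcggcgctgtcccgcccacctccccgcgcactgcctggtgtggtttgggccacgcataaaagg
Sod1: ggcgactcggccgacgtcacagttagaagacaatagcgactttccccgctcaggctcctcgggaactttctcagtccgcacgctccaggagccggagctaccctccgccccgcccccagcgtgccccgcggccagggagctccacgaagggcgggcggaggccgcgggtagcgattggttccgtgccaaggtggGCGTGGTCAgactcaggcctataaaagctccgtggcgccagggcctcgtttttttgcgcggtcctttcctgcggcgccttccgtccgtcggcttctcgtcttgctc
Prdx1: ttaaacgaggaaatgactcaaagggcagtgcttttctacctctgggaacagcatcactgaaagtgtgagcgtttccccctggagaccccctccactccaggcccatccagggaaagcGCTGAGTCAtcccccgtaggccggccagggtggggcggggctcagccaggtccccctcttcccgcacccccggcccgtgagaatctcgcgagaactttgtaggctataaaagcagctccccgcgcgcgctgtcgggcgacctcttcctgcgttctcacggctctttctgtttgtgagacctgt
TGACNNNGC was present in 2 of the 10 windows, those of *Sod1* and *Prdx1*, starting at -56 and -133 from the transcription start, and in 12.4% of all 32851 promoters. CACGTG, the E-box that SHARP proteins bind, was present in none of the 10 and in 7.15% of all promoters.

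*Nnt* had the lower signal in every S1/2-/- mouse. The WT signals were 989.3 and 777.3 for the ZT4 pair, 812.9 and 933.8 for the ZT16 pair. The S1/2-/- signals were 554.8 and 454.3 for the ZT4 pair, 546.0 and 571.9 for the ZT16 pair. All 4 S1/2-/- mice thus lay below all 4 WT mice, a pattern seen in 3.74% of the 7453 tested probe sets and printed here beside a difference for which *Nnt* was picked. In order, the group means were 883 ± 150 in WT at ZT4, 873 ± 85.5 in WT at ZT16, 559 ± 18.3 in S1/2-/- at ZT16 and 505 ± 71.1 in S1/2-/- at ZT4 (SD, n = 2 mice each), and only the step from WT to S1/2-/- separated neighbours in this order by more than their spread. Averaged over both times, the S1/2-/- signal was 0.606 of that in WT, a log2 difference of -0.72 (standard error 0.12). It was -0.80 at ZT4 and -0.64 at ZT16 (standard error 0.17 each). Of the 7453 tested probe sets, 55 had a more negative averaged difference than *Nnt*.

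Time of day left *Nnt* within the spread between mice. Between ZT4 and ZT16 the log2 change was -0.01 in WT (95% interval -0.40 to 0.38, adjusted p = 0.995 from limma) and 0.15 in S1/2-/- mice (-0.23 to 0.54, adjusted p = 0.875). The difference between these changes was 0.16 (-0.38 to 0.71, adjusted p = 0.954).

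**Figure D1:**
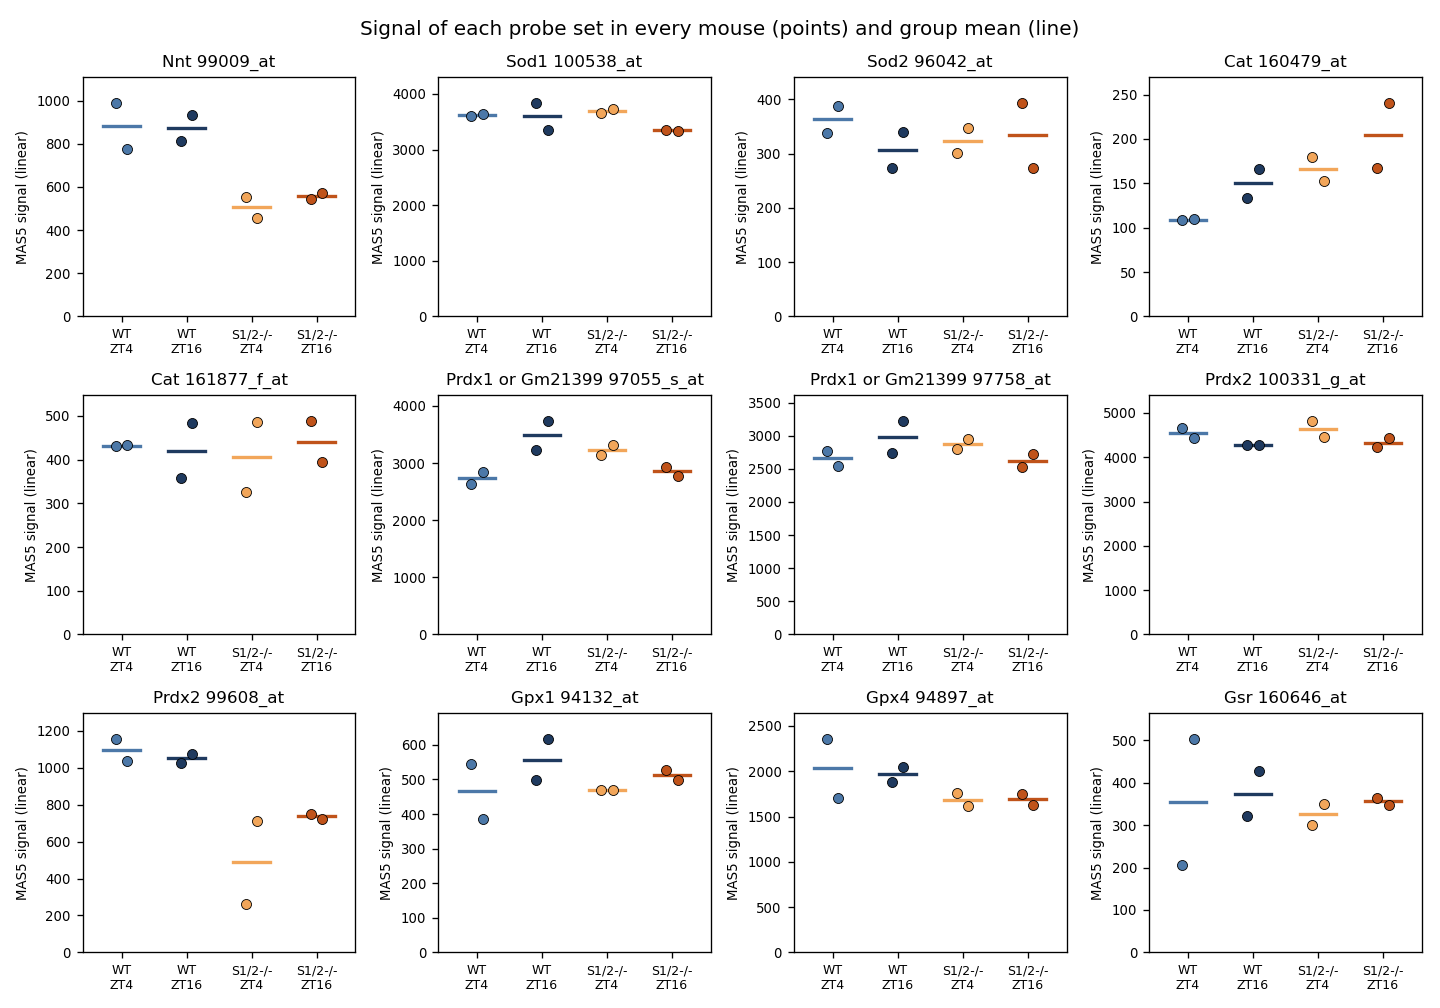
Signal of the 12 tested probe sets of the listed genes (vertical axis, linear MAS5 signal from 0) in the 4 groups (horizontal axis); points are mice and lines are group means of 2 mice. The S1/2-/- points lie wholly below the WT points for Nnt and for Prdx2 probe set 99608_at, and overlap them in the other panels.

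Markers of other cells moved with genotype in the same arrays. The summed signal of 6 oligodendrocyte markers ranged from 15520 to 21320 in WT and from 23700 to 27020 in S1/2-/- mice, without overlap, and of 10 tested probe sets for 5 of these genes 9 were higher in S1/2-/- mice and 5 were called. That of 6 astrocyte markers was 7044 to 9134 in WT and 8585 to 10550 in S1/2-/- mice. Of their 10 tested probe sets 8 were higher in S1/2-/- mice, with a median log2 difference of 0.41, 1 was called and 3 did not overlap, among them *Gfap* at 387.8 to 666.6 against 958.3 to 1378. Over all tested probe sets, 0.255% were called for the averaged genotype difference and 3.43% had all S1/2-/- mice above all WT mice. For 5 cortical neuron markers, all above the filter and with *Tbr1* at 5667 to 8634 which marks cortical projection neurons, the sums were 53220 to 56560 and 48640 to 53890. These sums are mostly *Snap25*, at 40400 to 46760 against 35070 to 39060, while 5 of the 6 tested neuron probe sets were higher in S1/2-/- mice (median 0.26) and none was called. That is the average of both times: at ZT4 3 of the 6 were higher (median 0.03), and at ZT16 5 (median 0.35). Sums of 7 microglial (4938 to 5675 against 5573 to 6059) and 5 endothelial markers (1510 to 1770 against 1612 to 2067) overlapped between the genotypes. Striatal sums (4 markers) set the WT mice of ZT4 apart, at 3754 and 4308 where the other arrays lay at 6874 to 14290, and all 4 tested striatal probe sets were higher in S1/2-/- mice at ZT4 with an unadjusted p under 0.05, none of them called in limma. At ZT4, 7.29% of all tested probe sets reached that unadjusted p, and 0.0939% were called. Choroid plexus sums (3 markers) were 3346 and 2960 in the WT mice of ZT16 and 1750 in S1/2-/- ZT4 replicate 1, and 129.5 to 433.4 on the other arrays. No marker was at 0 in every mouse. The oligodendrocyte marker *Cnp*, at 12.06 to 76.13, did not pass the filter. The part of these shifts in the *Nnt* and enzyme values was not tested, and in bulk tissue fewer cells of a type and less RNA per cell cannot be told apart.

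Most probe sets of the other antioxidant enzymes had an averaged genotype difference close to 0, some with wide intervals. Over the 9 tested probe sets of the 7 other enzymes, none was called for genotype at either time or averaged, against 0.255% of all probe sets in the averaged comparison, 0.0939% at ZT4 and 0.0134% at ZT16. At these rates few or none of 9 would be called. Of the 9, 7 were lower and 2 higher in S1/2-/- mice, with a median log2 difference of -0.03, and 49.6% of all tested probe sets were lower with a median of 0.0018. For 6 the difference was within 0.05 of 0 in the main fit. This depended on the scaling. Under median centring the same 6 ran from -0.11 for *Gpx1* to -0.0454 for *Prdx2* 100331_g_at, beside -0.79 for *Nnt*. Beside the *Nnt* interval of -0.997 to -0.448, given as a description since *Nnt* was picked for it, the 95% intervals of 6 of the 9 lay wholly higher and those of *Gpx4*, *Gsr* and *Prdx2* probe set 99608_at overlapped it. The intervals are not adjusted for their number, and the difference between *Nnt* and the enzymes was not tested. At an unadjusted p under 0.05, 1 of the 9 passed in the averaged comparison and 1 at ZT4, both times *Prdx2* 99608_at, and none at ZT16, where 12.4%, 7.29% and 10.9% of all probe sets did.

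**Figure D2:**
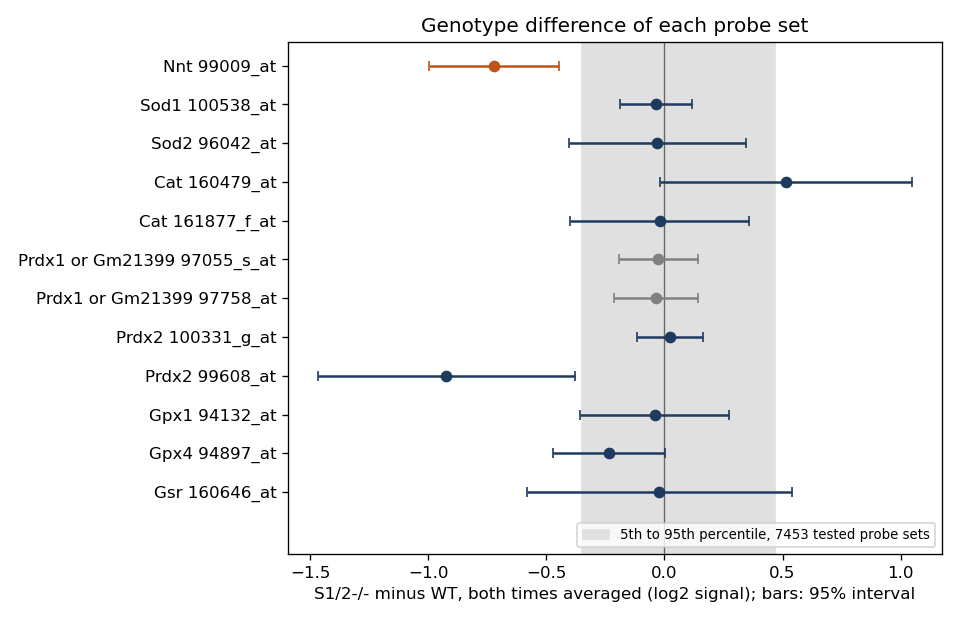
Difference between S1/2-/- and WT mice averaged over both times (horizontal axis, log2 signal) for each probe set (vertical axis), with 95% intervals from limma; the grey band spans the 5th to 95th percentile of all 7453 tested probe sets. Nnt (-0.72) and Prdx2 99608_at (-0.92) lie left of the band, Cat 160479_at (0.52) just right of it, and the rest inside.

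Neither superoxide dismutase separated the genotypes. Signals of cytosolic *Sod1*, listed with the ZT4 pair first, were 3612, 3647, 3841 and 3352 in WT against 3663, 3738, 3358 and 3330 in S1/2-/- mice. Levels of the genotypes overlapped, with a log2 difference of -0.04 (95% interval -0.19 to 0.11, adjusted p = 0.863). *Sod2*, the mitochondrial manganese enzyme that shares the matrix with NNT, read 338.2, 388.5, 273.2 and 340.8 in WT against 300.5, 347.4, 393.8 and 274.0 in S1/2-/- mice. Its difference was -0.03, with a wider interval of -0.41 to 0.35 (adjusted p = 0.957).

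Enzymes of the glutathione system included 1 with a small, uncalled shift. *Gpx4*, which reduces lipid hydroperoxides in membranes, read 2358, 1710, 1879 and 2052 in WT against 1760, 1612, 1753 and 1630 in S1/2-/- mice. A single WT mouse, the second at ZT4, overlapped the S1/2-/- range. The log2 difference was -0.23 (95% interval -0.47 to 0.0027, adjusted p = 0.406), with -0.25 at ZT4 and -0.22 at ZT16. The WT mice of ZT4 decided its size: without replicate 1 the averaged difference was -0.12 and that at ZT4 -0.0213, and without replicate 2 they were -0.35 and -0.49. *Gpx1*, the abundant cytosolic and mitochondrial glutathione peroxidase, ranged from 386.8 to 617.6 in WT and from 468.7 to 528.3 in S1/2-/- mice, with a difference of -0.04 (-0.36 to 0.27, adjusted p = 0.931). *Gsr*, which regenerates reduced glutathione with NADPH, spread from 205.8 to 503.4 in WT, both extremes at ZT4, and from 301.2 to 364.7 in S1/2-/- mice. Its difference of -0.02 therefore carried the widest interval of this group, -0.58 to 0.54 (adjusted p = 0.978).

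Peroxiredoxin 2, a cytosolic thiol peroxidase that is also abundant in erythrocytes, gave results that differed by probe set. Probe set 99608_at read 1157 and 1036 in the WT pair of ZT4, 1028 and 1077 in that of ZT16. The S1/2-/- pair of ZT4 read 264.8 and 710.3, that of ZT16 751.9 and 723.3. As with *Nnt*, no S1/2-/- mouse reached the lowest WT signal, which held for 3.74% of all tested probe sets. The averaged difference was -0.92 (standard error 0.24), or 0.527 of the WT signal, and was not called (adjusted p = 0.202 from limma). At ZT4 it was -1.34 (adjusted p = 0.327) and at ZT16 -0.51 (adjusted p = 0.604).
The size depended on the S1/2-/- mouse at 264.8. Without this mouse, S1/2-/- ZT4 replicate 1, the averaged difference was -0.57 (adjusted p = 0.153) and that at ZT4 -0.62 (adjusted p = 0.50). Without the other mouse of that group, S1/2-/- ZT4 replicate 2, they were -1.28 (adjusted p = 0.0113) and -2.05 (adjusted p = 0.00869), which passed both thresholds. That fit holds the mouse at 264.8 as the lone S1/2-/- mouse of ZT4 and assumes that it varies like the other groups. The array of replicate 1 also had the highest summed signal of 4 erythrocyte markers, 7634, where the other S1/2-/- arrays lay at 2758 to 4043 and the WT arrays at 2843 to 6822, and of the S1/2-/- arrays the highest choroid plexus sum, 1750 against 137.8 to 282. WT ZT4 replicate 2, at 6822 for the erythrocyte markers, had a 99608_at signal of 1036. The part of these markers in the *Prdx2* signal was not tested.
The second tested *Prdx2* probe set, 100331_g_at, showed no such difference. Its signals were 4665, 4446, 4266 and 4279 in WT against 4823, 4447, 4226 and 4440 in S1/2-/- mice, and its log2 difference was 0.02 (95% interval -0.12 to 0.16, adjusted p = 0.915). Another, 100330_at, lay under the filter at 2.862 to 12.19 and was not tested. Within each mouse, the signal of 99608_at was 23.3% to 25.2% of that of 100331_g_at in WT and 5.49% to 17.8% in S1/2-/- mice. This ratio, whose level says nothing of transcript shares, was lower in S1/2-/- mice by a log2 difference of -0.95, given with no test because the ratio was chosen after the values of 99608_at were seen. Which bases of the transcript each probe set reads was not analysed here.

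**Figure D3:**
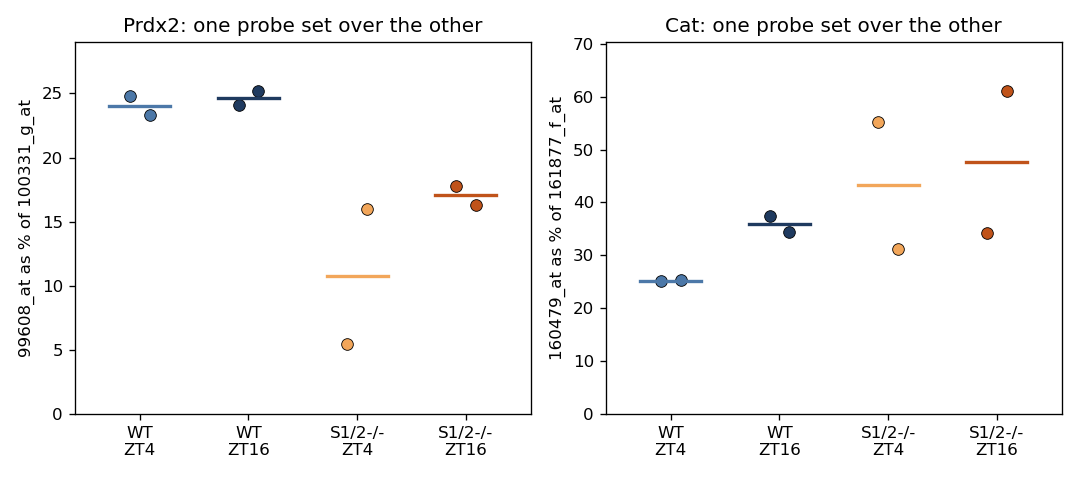
Signal of one probe set as a percentage of another probe set of the same gene (vertical axis, from 0) in the 4 groups; points are mice and lines group means. For Prdx2 (left) the WT mice lie between 23.3% and 25.2%, above all S1/2-/- mice, and for Cat (right) the genotypes overlap.

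Catalase, the peroxisomal enzyme that breaks down hydrogen peroxide, also had probe sets that differed. Probe set 160479_at read 108.2, 110.1, 133.5 and 166.1 in WT against 179.4, 152.3, 167.6 and 240.7 in S1/2-/- mice. Apart from 1 S1/2-/- mouse at ZT4, which fell below the highest WT mouse, S1/2-/- signals were the higher ones. The log2 difference was 0.52 (95% interval -0.02 to 1.05, adjusted p = 0.423), opposite in sign to that of *Nnt*. Probe set 161877_f_at, whose suffix marks probes not all unique to 1 transcript, ranged from 357.0 to 482.9 in WT and from 325.0 to 488.9 in S1/2-/- mice, with a difference of -0.02 (-0.40 to 0.36, adjusted p = 0.972). The ratio of the first to the second was 25.1% to 37.4% in WT and 31.3% to 61.1% in S1/2-/- mice, with overlap.

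The 2 probe sets listing *Prdx1* with *Gm21399* gave like levels in both genotypes when averaged over time. Probe set 97055_s_at had an averaged difference of -0.03 (adjusted p = 0.917) and 97758_at one of -0.04 (adjusted p = 0.886). For 97055_s_at the WT pair of ZT4 read 2642 and 2848, that of ZT16 3229 and 3740, while the S1/2-/- pair of ZT4 read 3139 and 3311, that of ZT16 2935 and 2775. WT signals were higher at ZT16 and S1/2-/- signals at ZT4. Each of these sets 2 mice against 2, and how many probe sets share this pattern was not counted. The difference of the changes, -0.52 on the log2 scale (standard error 0.15), did not pass over all probe sets (unadjusted p = 0.00614 and adjusted p = 0.654 from limma). The other probe set had -0.29 (adjusted p = 0.875).

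Changes from ZT4 to ZT16 in the 9 probe sets of the other enzymes were not called in either genotype, with 0.0134% of all probe sets called in WT and 0% in S1/2-/- mice. By limma none had an unadjusted p under 0.05, where 7.61% and 7.31% of all probe sets did. Few or none of 9 would be counted at these background rates. In WT the changes ran from -0.25 for *Sod2* to 0.45 for *Cat* 160479_at. In S1/2-/- mice they ran from -0.15 for *Sod1* to 0.77 for *Prdx2* 99608_at, whose interval was -0.0029 to 1.53 (adjusted p = 0.676). Without the mouse at 264.8, S1/2-/- ZT4 replicate 1, this change was 0.0541, and without replicate 2 it was 1.48 (adjusted p = 0.0606). The difference between the genotypes in this change was called for none of the 9, against 0% of all, with a lowest adjusted p of 0.898 and none at an unadjusted p under 0.05, which 5.69% of all probe sets reached.

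Other genes of these pathways were described by list. For the averaged genotype difference none of their 90 tested probe sets was called, beside 0.255% of all, and no comparison of the 6 called any. At that background rate few or none of 90 would be called. In the averaged comparison, 12.4% of all probe sets had an unadjusted p under 0.05. Higher and lower in S1/2-/- mice, 1 and 1 of 9 did for NADPH supply and 2 and 2 of 24 for glutathione synthesis and transfer. Further peroxidases and dismutases had 1 and 0 of 5, thioredoxin and glutaredoxin 1 and 1 of 14. The NRF2 list had 2 and 3 of 16, inner mitochondrial membrane proteins 2 and 3 of 20. Sources of superoxide and peroxide had 0 of 2. All other lists exceeded the 12.4%. Suppliers of NADPH, the cofactor that NNT makes, had 9 tested probe sets, of which 4 lay higher and 5 lower in S1/2-/- mice (median log2 difference -0.11). They ran from -0.50 for *Nadk* to 0.42 for *Idh2*. Transketolase, *Tkt*, of the pentose phosphate pathway, gave 1789 to 2101 in WT and 1384 to 1520 in S1/2-/- mice without overlap, a log2 difference of -0.41 (adjusted p = 0.115). *Idh2*, which like NNT makes NADPH in the mitochondrial matrix, had higher signals in all S1/2-/- mice, 352.5 to 403.7 against 260.8 to 313.2 (log2 difference 0.42, adjusted p = 0.290). Its cytosolic counterpart *Idh1* had 0.21 (adjusted p = 0.536) and *Pgd*, of the pentose phosphate pathway, 0.24 (adjusted p = 0.553). Of the 9 probe sets, 1 had all S1/2-/- mice below all WT mice and 1 above, as did 3.74% and 3.43% of all tested probe sets. *Tkt* and *Idh2* were named for the low p that goes with such separation.

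Among 5 tested probe sets of further peroxidases and dismutases, 3 lay higher and 2 lower in S1/2-/- mice (median 0.03). Extracellular superoxide dismutase, *Sod3*, read 308.1, 379.8, 362 and 528.4 in WT against 537.4, 563.8, 775 and 751.3 in S1/2-/- mice. All S1/2-/- mice lay above all WT mice, as for 3.43% of tested probe sets, with a log2 difference of 0.74 (standard error 0.15) that was not called (adjusted p = 0.0940). The mitochondrial peroxiredoxin *Prdx3* had a difference of 0.03 (adjusted p = 0.903), *Prdx4* of the endoplasmic reticulum -0.31 (adjusted p = 0.632) and *Gpx2* 0.22 (adjusted p = 0.759).

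Glutathione synthesis and transfer was represented by 24 probe sets, 10 higher and 14 lower (median -0.02). In 2 of the 24 all S1/2-/- mice lay below all WT mice and in 0 above, against 3.74% and 3.43% of all tested probe sets. *Gstp1* and *Mgst3*, glutathione transferases, had -0.31 (adjusted p = 0.204) and -0.21 (adjusted p = 0.268). The glyoxalase *Glo1* had 0.45 (adjusted p = 0.304) and 0.26 on its other probe set, and glutathione synthetase, *Gss*, 0.92 (adjusted p = 0.317), on signals of 63.61 to 212.4 in WT and 211.4 to 367.0 in S1/2-/- mice, while another *Gss* probe set had -0.10. Of 14 thioredoxin and glutaredoxin probe sets, 5 were higher and 9 lower (median -0.08), with 0.45 for *Txnl1* (adjusted p = 0.277), -0.32 for *Txnrd3* (adjusted p = 0.374), -0.18 for *Sesn1* (adjusted p = 0.435) and 0.13 for *Txnl4a* (adjusted p = 0.544). In none of these 14 were the genotypes without overlap. Genes of NRF2 control and its targets were evenly divided, 8 higher and 8 lower, from -0.97 for *Ephx1* to 0.75 for *Cbr3*.

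In that NRF2 list the ferritin heavy chain, *Fth1*, was lower in every S1/2-/- mouse, 15020 to 15770 against 17230 to 18740 in WT, by -0.20 (standard error 0.05, adjusted p = 0.174), and had -0.09 on its other probe set. Of the 16 probe sets in the list, 2 had all S1/2-/- mice below all WT mice and 1 above, against 3.74% and 3.43% of all tested. *Mafk* had 0.56 (adjusted p = 0.336), and the carbonyl reductases *Cbr1* and *Cbr3* had -0.31 (adjusted p = 0.344) and 0.75 (adjusted p = 0.371). Proteins that share the inner mitochondrial membrane with NNT had 20 probe sets, 9 higher and 11 lower (median -0.03). In 3 of the 20 all S1/2-/- mice lay below all WT mice and in 0 above, against 3.74% and 3.43% of all tested probe sets. The lowest p belonged to *Sdhb* of complex II at -0.23 (adjusted p = 0.297), *Gpd2* at 0.41 (adjusted p = 0.306), the oxoglutarate carrier *Slc25a11* at -0.21 (adjusted p = 0.362) and *Atp5a1* of ATP synthase at -0.14 (adjusted p = 0.374). *Sdhb*, at 2954 to 3231 against 3278 to 3954 in WT, and *Atp5a1*, at 10660 to 11620 against 11670 to 13190, were among those without overlap. Of the superoxide and peroxide sources only *Cyba* (0.18, adjusted p = 0.693) and *Maoa* (-0.09, adjusted p = 0.856) passed the filter.

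**Figure D4:**
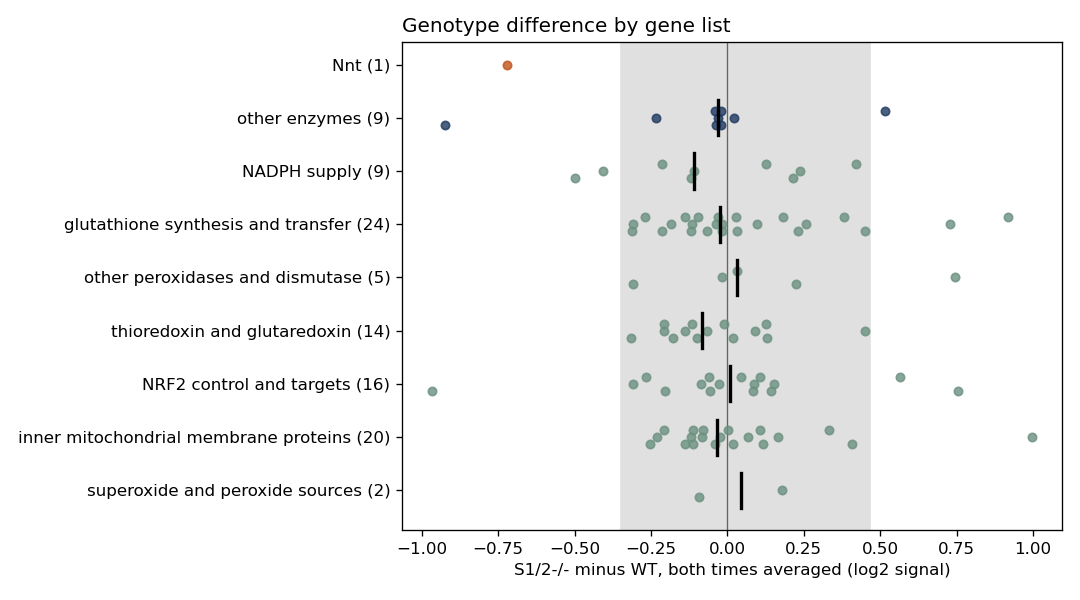
Difference between S1/2-/- and WT mice averaged over both times (horizontal axis, log2 signal) for every tested probe set (points) of Nnt, the other enzymes and each pathway list (vertical axis, number of probe sets in parentheses); black lines are list medians and the grey band spans the 5th to 95th percentile of all tested probe sets. List medians lie between -0.11 and 0.04, and Nnt, which was picked for its difference, at -0.72. The lowest point of the NRF2 list, Ephx1, lies at -0.97.

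The tested array genes nearest to *Nnt* on chromosome 13 were divided in direction. Of the 20 genes on the array that lie nearest to it in gene order, 10 on each side, 8 passed the filter, with 4 lower and 4 higher in S1/2-/- mice (median 0.0097). Many genes between them are not on the array. Before *Nnt* the tested genes lay 18 (*Emb*) to 43 (*Ndufs4*) genes away, and *Fgf10*, 2 genes away, did not pass the filter. After *Nnt* they lay 2 (*4833420G17Rik*) to 11 (*Zfp131*) genes away. None of the 8 was called for the averaged genotype difference in limma, none had an unadjusted p under 0.05 for it, and for none were the genotypes without overlap. Over all tested probe sets these shares were 0.255%, 12.4%, and 3.74% below or 3.43% above, so few or none of 8 would be counted at the background rate. *Hmgcs1*, an enzyme of cholesterol synthesis, had 0.16 (adjusted p = 0.541), *Emb* -0.10 (adjusted p = 0.779), *Parp8* 0.16 (adjusted p = 0.827) and *Ndufs4*, a subunit of complex I, 0.07 (adjusted p = 0.896).

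**Figure D5:**
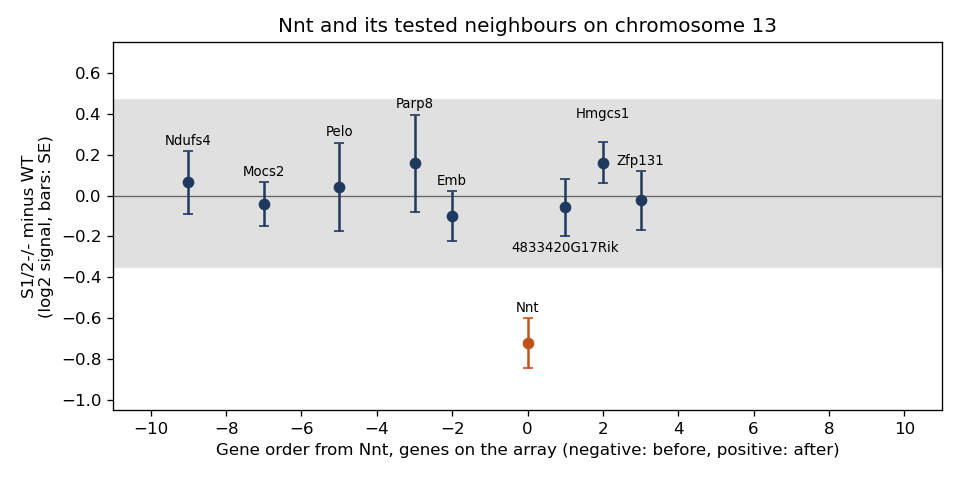
Difference between S1/2-/- and WT mice averaged over both times (vertical axis, log2 signal, bars are standard errors) for Nnt and the 8 tested genes around it, in gene order along chromosome 13 (horizontal axis, genes on the array counted from Nnt). The grey band spans the 5th to 95th percentile of all tested probe sets. The 8 neighbours lie between -0.10 and 0.16 and Nnt at -0.72.

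The profiles nearest to that of *Nnt*, by the root mean square difference of centred log2 signals over the 8 arrays, belonged to *Tmem245* (0.142), *Zfp36l2* (0.148), *Resp18* (0.150), the MHC class I gene *H2-D1* (0.154) and *Apaf1* (0.164). Their averaged genotype differences were -0.46, -0.58, -0.71, -0.51 and -0.51. For comparison, the distance to *Nnt* was 0.259 for *Gpx4* and 0.495 for *Prdx2* 99608_at. These genes were found by the same values for which *Nnt* was picked, so the ranking is a description.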

How the data were processed

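The cortex of 8 mice was measured on Affymetrix arrays, 1 array per mouse. The authors deposited MAS5 signal intensity values on a linear scale, 12488 rows by 8 columns, each array scaled to a 2% trimmed mean of 500. All columns were used, and no version of MAS5 was named. The 66 control rows were left out. Array annotation gave 10833 probe sets 1 gene symbol, 396 several and 1193 none. Values below 1 (64 in all) were set to 1 before taking log2, and tests covered the 7453 probe sets whose mean log2 signal reached 6.79, the 40th percentile.

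All arrays entered 1 fit of 4 group means in limma 3.58.1 (R 4.3.3) with an intensity trend, 4 residual and 6.02 prior degrees of freedom. Calls needed more than a 1.5-fold change together with a Benjamini-Hochberg adjusted p under 0.05 over all 7453, following the thresholds in the study's methods. Intervals are 95% intervals from the same fit. The fit was tested on 20 simulated data sets with 200 changed probe sets each. For the averaged genotype difference it called 31.8% of 1.5-fold and 74.2% of 2-fold decreases, with 6.85 false calls per set on average. Changes of such size can thus go uncalled. The simulated noise used variances that limma had already drawn toward its trend. The 200 planted changes also exceed the 19 calls in these data, so recovery here may be lower. Same-group arrays come from separate mice, so p-values measure the spread between individual mice.

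The members and gene lists were chosen with earlier results of these data known. Named were all member probe sets, the 4 of each list with the lowest p for the averaged genotype difference, neighbours of *Nnt* by gene order and the 5 profiles nearest to *Nnt*. The ratio of paired probe sets was chosen after the values were seen and is given without a test. Alternatives were other filters (none, 60th percentile), quantile normalization, median centring, log2(signal + 16), no trend, ordinary ANOVA, unadjusted p, the replicate number as a block, and each array left out. Same-numbered samples did not deviate together (correlations of deviations from -0.00135 to 0.0982), so the labels' numbers were not taken as pairs. Promoters (250 bases before to 50 after the start) are from RefSeq, GRCm38.p6. Both strands were searched for CACGTG and TGACNNNGC, and no match of one overlapped the other.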

Additional observations from a re-analysis of the deposited data

Results flagged for a closer look

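*Prdx2* probe set 99608_at held 1 S1/2-/- mouse far from the rest. Over the 4 S1/2-/- mice of both times, the gap between the lowest signal, 264.8, and the next, 710.3, was 0.915 of the whole range, above the 95% critical value of Dixon's test. Chance alone gives about 1 such case in 20 groups, and 24 groups of 4 mice were examined, of which this was the only one.

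For probe set 97055_s_at, listed under both *Prdx1* and *Gm21399*, the change from ZT4 to ZT16 ran upward in WT (log2 change 0.34) and downward in S1/2-/- mice (-0.18). The difference of -0.517 had an unadjusted p of 0.00614 and an adjusted p of 0.654 in limma, so it failed the correction over all probe sets. Its size ranged from -0.62 to -0.41 with each array left out.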

How the results depend on the processing

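The averaged *Nnt* difference lay between -0.81 and -0.64 with each array left out and between -0.79 and -0.71 under the 4 other alternatives run for it, the replicate block included, whose value was -0.72. *Nnt* was given no call for genotype. Among the other enzymes, only *Prdx2* 99608_at was called under any alternative. At an unadjusted p, this 1 probe set was called in the averaged difference and 1 at ZT4, and leaving out single arrays gave 0 to 1 in each (1 without S1/2-/- ZT4 replicate 2). The replicate block left the count at 0 in all 6 comparisons. Small differences turned sign. Under quantile normalization the averaged differences of the *Prdx1* and *Gm21399* probe sets were 0.0065 and 0.0032, and under median centring that of *Prdx2* 100331_g_at was -0.0454 and the *Nnt* change in WT 0.0153. Median centring also lowered the averaged difference to -0.10 for *Sod1*, -0.0971 for *Sod2*, -0.0872 for *Cat* 161877_f_at, -0.11 for *Gpx1* and -0.0897 for *Gsr*. With single arrays left out the averaged difference ranged from -0.086 to 0.0124 for *Sod1*, -0.16 to 0.10 for *Sod2*, -0.17 to 0.13 for *Cat* 161877_f_at, -0.0074 to 0.0512 for *Prdx2* 100331_g_at, -0.17 to 0.0823 for *Gpx1*, -0.35 to 0.30 for *Gsr*, -0.35 to -0.12 for *Gpx4*, and -0.0785 to 0.0274 and -0.095 to 0.0229 for the *Prdx1* and *Gm21399* probe sets; the *Nnt* change in WT ranged from -0.18 to 0.16 and its difference between genotypes from -0.0101 to 0.34. *Cat* 160479_at was below the 60th percentile filter. The cause was not tested in any of these.

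Counts over all probe sets moved more. For the averaged difference, 19 were called, against 11 without a filter, 11 with median centring, 0 without the trend, 0 by ANOVA, 187 at an unadjusted p, and 0 to 88 with single arrays left out (88 without WT ZT16 replicate 1). At ZT4 the count was 7, with 0 to 14, and at ZT16 1, with 0 to 156, when arrays were left out. With 2 mice in a group, the number of arrays limits the precision.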
